A study of Mus musculus with 22 samples.

Results

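The samples described here were whole brains of wild-type mouse pups on the day of birth (postnatal day 0), taken from the litters of 2 mouse colonies that carry deletions in the region of chromosome 7 matching the human Prader-Willi syndrome (PWS) locus. The PWS-cr colony carries a deletion of the Snord116 cluster and part of Ipw, and the PWS-IC colony a deletion of the imprinting centre. The wild-type littermates carried neither deletion, and they were called WT_cr in the PWS-cr colony and WT_IC in the PWS-IC colony. The members were 9 libraries of the 22 samples of the series. They comprised 5 WT_cr pups (2 female and 3 male, from 3 litters) and 4 WT_IC pups (1 female and 3 male, from 2 litters). Litter was read from the first number of each sample title, since the labels do not state it in words for every sample. The study bought the PWS-cr line as B6(Cg)-Snord116tm1Uta/J and described its matings for a behavioural cohort, with C57BL/6 and CD1 mice. The labels name no strain for these pups, so colony, strain background and the separate counting of each colony's table cannot be told apart.

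The members were chosen by the genotype label and selected on 1 measured gene. Snrpn, which is made from the paternal chromosome and is lost when the imprinting centre is deleted on it, ranged from 243 to 295 CPM (a count scaled by the library total) in the 9 members. In a further library labelled as a male wild type of the PWS-IC colony (WT_IC pup 3), Snrpn was at 5.71 CPM, and that library was left out. It also held 2072 CPM of Xist, the RNA that coats the inactive X chromosome of females, and 9 counts of the Y-linked gene Eif2s3y. In the members Xist and Eif2s3y followed the sex labels, with 1067 to 1736 CPM of Xist in the 3 females and 1.57 to 4.72 CPM in the 6 males. WT_cr pup 2 and WT_IC pup 4 were not analysed here.

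The newborn mouse brain is still being built. Most of its neurons have been born and are extending axons and dendrites, which takes large amounts of tubulin and actin, while astrocytes and oligodendrocytes are only beginning to appear and myelin is almost absent. Comparing wild-type animals of separate colonies shows how far brain transcriptomes differ where no mutation was compared.

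By TPM, a measure of transcript level per length of gene, the messenger RNAs of the cytoskeleton led the nuclear protein-coding genes. Tuba1a, the alpha tubulin of young neurons, held 7427 ± 594 TPM in WT_cr (SD, n = 5) and 6054 ± 346 TPM in WT_IC (SD, n = 4). Tubb2b, Tubb3, Tubb5 and Tubb2a, which encode beta tubulins, all stood at or above 2243 TPM in every pup. Tmsb10, Basp1, Actb and Marcksl1, which act on actin and at the growing membrane, lay between 2155 and 3606 TPM over all 9 pups. The translation factor gene Eef1a1 was second among nuclear coding genes, with 5557 ± 340 and 5564 ± 275 TPM. Nnat, an imprinted gene expressed from the paternal copy in neurons, held 2999 ± 75.7 and 2960 ± 324 TPM.

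Above these messenger RNAs stood mitochondrial transcripts and a few short or ribosomal features. The 12 features of highest mean TPM were Gm23935, Bc1, mt-Co1, mt-Nd1, mt-Cytb, CT010467.1, mt-Nd2, mt-Nd6, Tuba1a, mt-Nd5, mt-Nd4 and Eef1a1. Bc1 is a short neuronal RNA that represses translation in dendrites, and it reached 15184 to 21445 TPM in WT_cr and 21860 to 24890 TPM in WT_IC. Gm23935 and CT010467.1, annotated as a microRNA and a ribosomal RNA, had lower mean levels in WT_cr. For CT010467.1 the WT_cr pups held 3419 to 10538 TPM and the WT_IC pups 15751 to 28595 TPM, with no overlap.

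In all, 16904 genes reached 1 TPM in every one of the 9 pups, of which 13773 were nuclear and protein coding. At 10 TPM the number was 10060, at 100 TPM it was 1496 and at 1000 TPM it was 52. The 10, 100 and 1000 highest nuclear coding genes held 4.62%, 16.1% and 45.5% of all nuclear coding TPM in WT_cr, and 4.75%, 16.7% and 46.3% in WT_IC. The order of the highest genes was much alike in the colonies, with 11 of the top 12, 95 of the top 100 and 940 of the top 1000 shared.

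The tissue label was checked against markers of brain and of other organs. The neuronal genes Stmn2, Dcx and Map2 had mean levels of 876, 466 and 432 TPM in WT_cr and 829, 449 and 457 TPM in WT_IC. The radial glia gene Fabp7 had 1602 and 1410 TPM, the inhibitory neuron gene Gad1 114 and 110 TPM and the oligodendrocyte lineage gene Olig1 144 and 128 TPM. Neurod6, of cortical excitatory neurons, spanned 154 to 464 TPM among the WT_cr pups and 353 to 400 TPM among the WT_IC pups. Alb of liver, Ckm of muscle, Krt5 and Krt14 of skin, Umod of kidney and Ins2 of pancreas averaged at most 0.555 TPM in either colony. The skeletal muscle gene Acta1 was higher, with 8.45 to 38.4 TPM in WT_cr and 8.34 to 9.72 TPM in WT_IC.

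**Figure D1:**
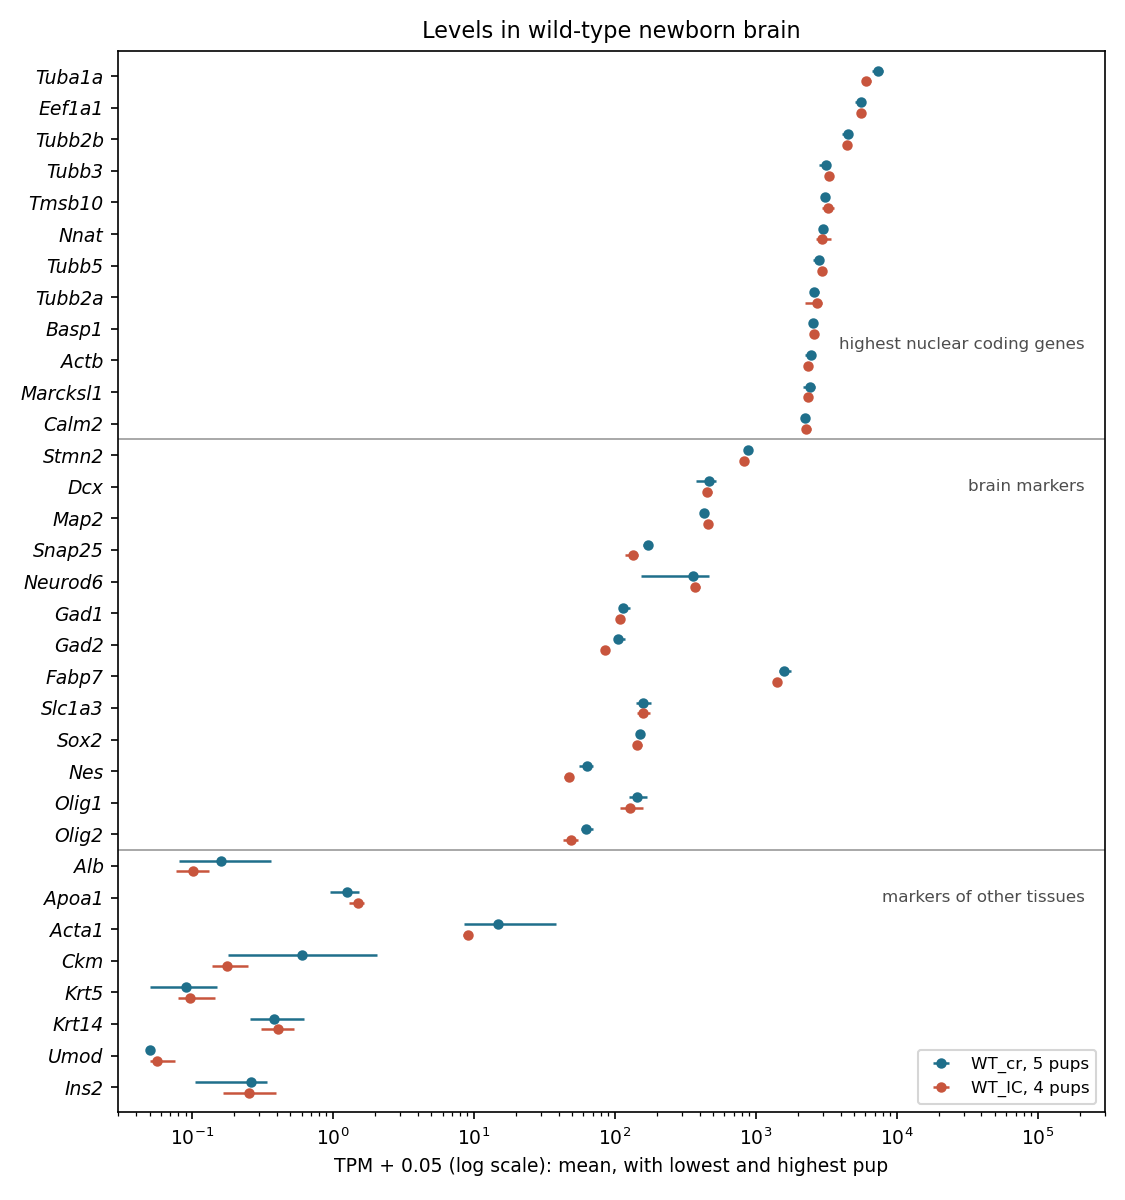
Mean TPM plus 0.05 on a log axis for the 12 nuclear coding genes of highest level, for brain markers and for markers of other tissues, in 5 WT_cr and 4 WT_IC pups. Points are colony means and lines run from the lowest to the highest pup; the tubulin genes stand at or above 2243 TPM, and all markers of other tissues except Acta1 stand at or below 2.01 TPM in every pup.

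The libraries were deep and of like size. Each held 47113084 to 58727396 counts, the scaling factors ran from 0.978 to 1.02, and 21316 to 22459 genes had at least 10 counts. Mitochondrially encoded features took 2.68% to 3.08% of the counts. The ribosomal feature CT010467.1 took 0.205% to 0.658% in WT_cr and 1.04% to 1.87% in WT_IC. As shares of TPM, nuclear coding genes took 78.7% to 82.1% in WT_cr and 75.6% to 76.9% in WT_IC.

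The colony comparison asked which genes differ between wild-type brains when no PWS genotype is involved. Of 22260 genes tested, 4536 (20.4%) passed an adjusted p of 0.05 in edgeR's quasi-likelihood test with sex as a term. Of the genes tested, 2190 (9.84%) were called higher and 2346 (10.5%) lower in WT_IC. Over all 22260 genes tested, 4524 (20.3%) had CPM ranges that did not overlap between the colonies. Among them were 3762 of the called genes. Many differences were small: the median absolute log2 fold change of the 4536 called genes was 0.62, and 2185 of them differed by less than 1.5-fold. At least 2-fold, 910 were higher and 631 lower. Fold changes below are on the log2 scale, WT_IC over WT_cr, with the standard error (SE), and CPM values are scaled by TMM factors.

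Pups of a litter share a mother and a day of birth, and each litter belonged to a single colony. The p-values therefore rest on pups, and with the counts summed per litter (3 litters against 2) 1664 genes were higher and 1846 lower. There were 2713 calls without WT_IC pup 1 and 1374 without WT_IC pups 1 and 5, which leaves 2 pups in that colony.

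**Figure D2:**
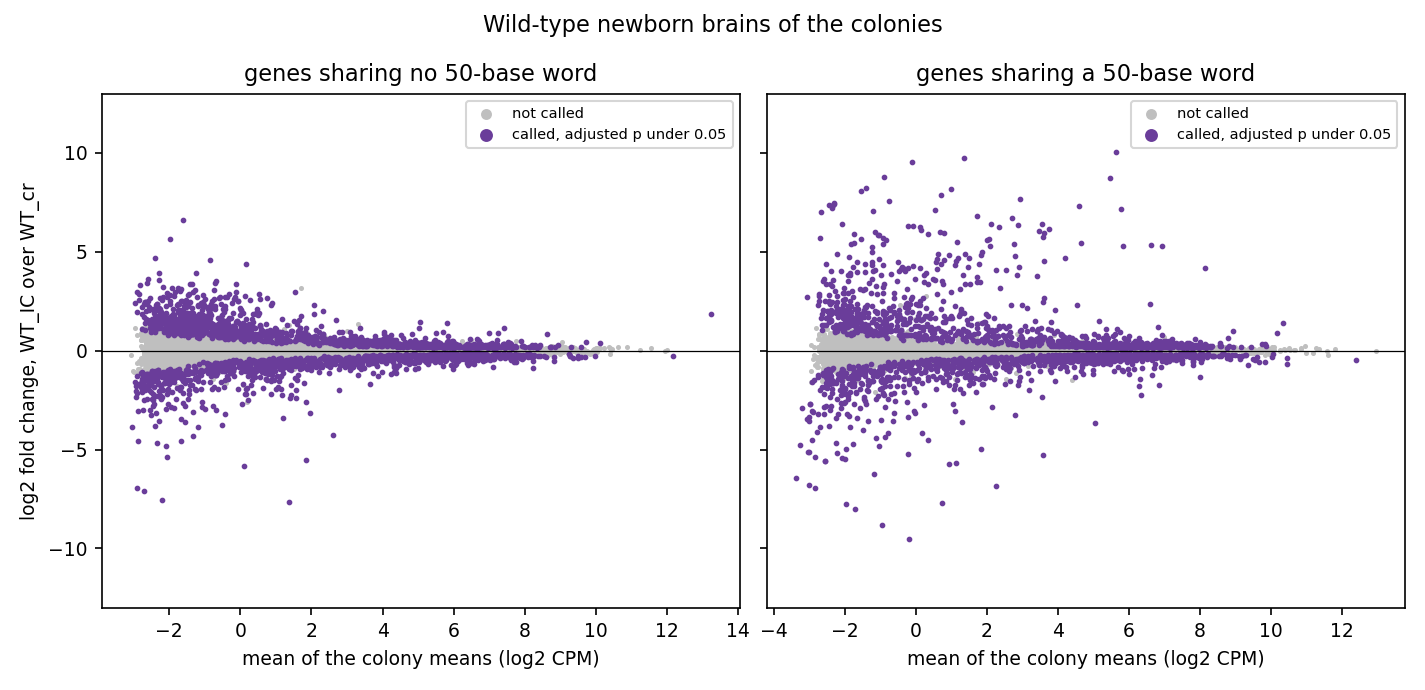
Log2 fold change of WT_IC over WT_cr against the mean of the colony means in log2 CPM for the 22260 genes tested, split by whether a gene shares any 50-base word with the transcripts of another gene. Purple points passed an adjusted p of 0.05. Of the genes that share no word 18.5% were called, and Rps2-ps13, in the panel of genes that share one, lies at 10.03.

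Most of the interferon-responsive genes were lower in WT_IC. Interferons are signals of antiviral defence, and the genes they switch on carry short sequence elements in their promoters that bind IRF transcription factors. All 20 tested members had a negative fold change, 14 were called lower and none higher, and the median was -1.07 beside 0.01 over all genes tested. The ranges of 13 did not overlap. Over all genes tested, 10.5% were called lower and 20.3% had ranges without overlap. Their levels were low in both colonies, with summed TPM of 103 to 170 in WT_cr and 66.8 to 89.5 in WT_IC.

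Among them, Ifit1, which encodes a protein that binds viral RNA, held 0.844, 0.987, 3.55, 1.12 and 1.29 CPM in the 5 WT_cr pups and 0.47, 0.244, 0.441 and 0.337 CPM in the 4 WT_IC pups. The fold change was -1.88 ± 0.40 (SE), with an edgeR adjusted p of 0.0058. Oasl2, of the oligoadenylate synthetase family, held 4.22, 4.34, 10.2, 4.7 and 5.07 CPM against 2.4, 1.62, 1.95 and 2.08 CPM, and changed by -1.40 ± 0.23 (SE). The groups did not overlap in either gene, and the third WT_cr value, of pup 4, was the highest in both.

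The ubiquitin-like modifier gene Isg15 held 1.16 to 2.13 CPM in WT_cr and 0.627 to 0.733 CPM in WT_IC, a change of -1.14 ± 0.18 (SE). The transcription factor gene Irf7 changed by -1.08, the deubiquitinase gene Usp18 by -1.30, Xaf1 by -1.42, Ifi44 by -1.90 and the virus tethering gene Bst2 by -0.91. Ifitm3, Ifit2, Mx2, Gbp2, Ifi27 and Mx1 did not pass the test, and Ifit2 was the member of highest CPM. WT_cr pup 4 was the highest of the 9 pups in 17 of the 20 genes. Without that pup 13 genes were lower, none was higher and the median was -0.86. In turn, 8 genes were lower without WT_IC pup 1 and 1 without WT_IC pups 1 and 5, where the medians were -0.98 and -0.98. Over all genes tested without WT_cr pup 4, 2206 of 22052 were lower. Without WT_IC pup 1 it was 1475 of 21819, and without WT_IC pups 1 and 5 it was 735 of 21434.

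**Figure D3:**
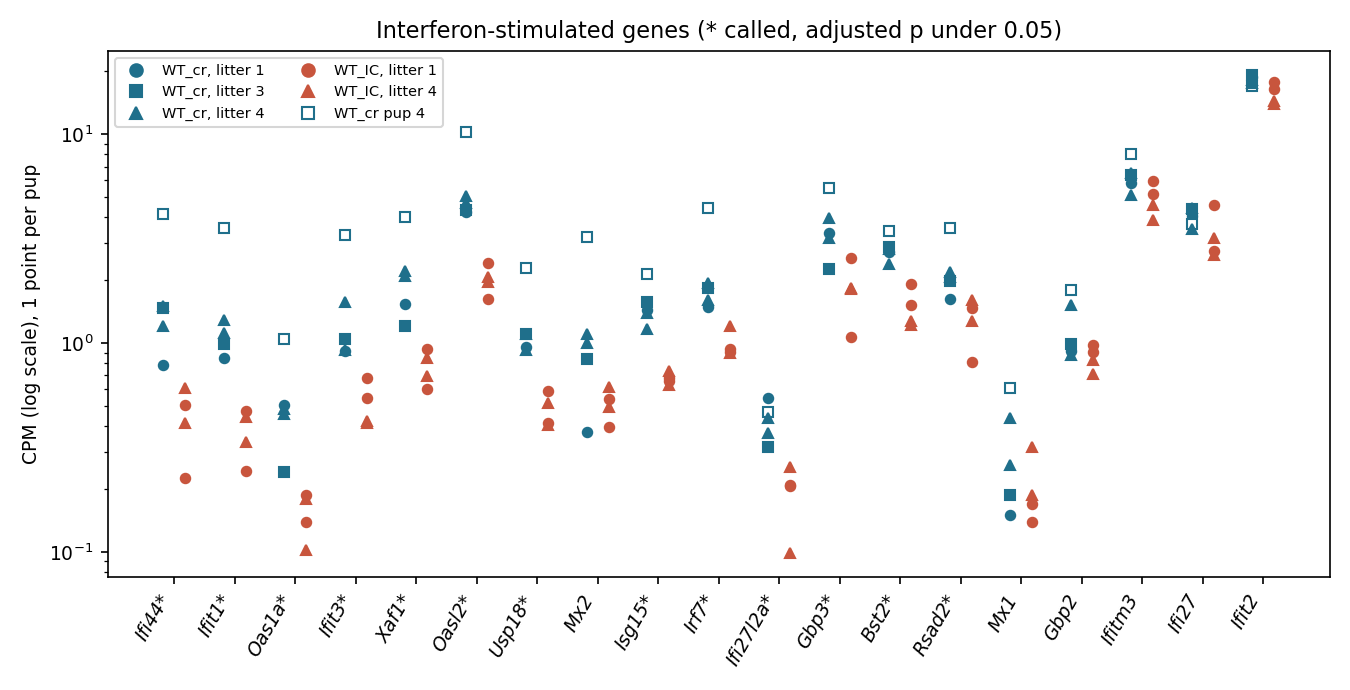
CPM per pup on a log axis for 19 of the 20 tested interferon-responsive genes, ordered by fold change, with symbols for litters and an open square for WT_cr pup 4. Blue WT_cr points lie above red WT_IC points for the 12 plotted genes whose ranges do not overlap, and WT_cr pup 4 is the highest in 16 of those plotted.

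The promoters of these genes were searched for the core of the interferon-stimulated response element, written as GAAA, any 2 bases and GAAA again, and read on both strands, in RefSeq windows from 250 bases before to 50 bases after the start site (GRCm38.p6). Matches in a window may overlap each other. Of 14 interferon-list genes with a promoter in the table, 9 (64.3%) held it, as did 7 of the 11 called lower. Over all 14016 tested genes with a promoter, 510 (3.64%) held it. Of all tested genes called lower, 76 of 1507 (5.04%) held it, and of those called higher 38 of 977 (3.89%). The list was made of genes that respond to interferon, so its share describes that choice and not the difference between the colonies. The lines below show the element in 4 genes whose levels are given above or that were called lower, as 90-base windows on the strand of the gene with the matched bases in capitals.
Isg15, chr4:156200847-156200936, minus strand: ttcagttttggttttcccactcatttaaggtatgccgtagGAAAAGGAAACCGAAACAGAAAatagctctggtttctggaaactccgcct
Ifit1, chr19:34640745-34640834, plus strand: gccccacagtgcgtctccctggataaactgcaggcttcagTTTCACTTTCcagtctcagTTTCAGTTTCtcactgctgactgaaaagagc
Oas1a, chr5:120907496-120907585, minus strand: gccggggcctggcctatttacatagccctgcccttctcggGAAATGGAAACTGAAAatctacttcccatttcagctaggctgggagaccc
Bst2, chr8:71537553-71537642, minus strand: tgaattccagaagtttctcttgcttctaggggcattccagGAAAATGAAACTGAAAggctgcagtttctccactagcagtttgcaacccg

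The windows place the element upstream of the start site in all 4 genes: its first base lay 78 bases before the start in Isg15, 104 in Ifit1, 20 in Oas1a and 130 in Bst2. Isg15 held 3 overlapping matches and the other three 2 matches each. In Ifit1 the letters read TTTC, any 2 bases and TTTC, which is the same element on the opposite strand.

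Genes of the brain's blood vessels were slightly lower in WT_IC. Of 18 markers of endothelium and pericytes, 7 were called lower and none higher, with a median of -0.21. The share called lower over all genes tested was 10.5%. Rgs5, a regulator of G-protein signalling in pericytes, held 126, 130, 111, 111 and 112 CPM in WT_cr and 70.9, 68.8, 81.2 and 71.4 CPM in WT_IC, a change of -0.69 ± 0.07 (SE, edgeR adjusted p = 4.1e-05). Cspg4, of pericytes and oligodendrocyte precursors, changed by -0.56 ± 0.10 (SE), and the endothelial adhesion and receptor genes Cdh5, Tek, Esam, Kdr and Pecam1 by -0.18 to -0.33. The tight junction gene Cldn5 was not called, with 43.2 to 49.7 CPM in WT_cr and 38.1 to 47.4 CPM in WT_IC. In bulk tissue, fewer cells of a type and less RNA per cell cannot be told apart. Only 4 vessel genes were called with the males alone and 2 without WT_IC pups 1 and 5. In those settings 13.6% and 6.41% of all genes tested were called.

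Genes of the major histocompatibility complex (MHC), whose products present peptides to T cells and whose alleles differ widely between mouse strains, moved in both directions. Of 20 tested, 4 were called higher and 5 lower, beside 9.84% and 10.5% of all genes tested. H2-K1, a classical class I gene, held 5.56 to 9.40 CPM in WT_cr and 13.5 to 18.4 CPM in WT_IC (1.13 ± 0.14, SE). The class II gene H2-Aa held 0.0931 to 0.312 CPM in WT_cr and 1.02 to 2.51 CPM in WT_IC (3.12 ± 0.31, SE), while its class II partner genes H2-Ab1 and H2-Eb1 and the invariant chain gene Cd74 were not called. H2-T24 and H2-Q7 were lower, both with -2.07, and B2m, the light chain shared by class I molecules, was lower with -0.47 ± 0.08 (SE). The groups of H2-K1, H2-Aa, H2-T24 and H2-Q7 did not overlap.

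H2-D1 showed a division inside WT_IC. It held 14.0 CPM in WT_IC pup 1 and 52.8, 48.4 and 50.5 CPM in the other three, against 30.5 to 37.1 CPM in WT_cr. The colony means were thus close, with a fold change of 0.09 ± 0.27 (SE), although no WT_IC pup lay inside the WT_cr range.

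Among genes listed as variable between laboratory strains, 7 of 19 were called higher and 3 lower in WT_IC, beside 9.84% and 10.5% of all genes. Trim12a, a TRIM family gene, held 3.22 to 4.07 CPM in WT_cr and 0.0376 to 0.102 CPM in WT_IC (-5.71 ± 0.22, SE). Alad, an enzyme of haem synthesis whose gene is present in several copies in some strains, held 17.4 to 19.3 CPM in WT_cr and 40.7 to 54.4 CPM in WT_IC (1.44 ± 0.08, SE). Ifi202b, an interferon-inducible gene, was near 0 in WT_cr with 0.0359 to 0.0832 CPM, and held 0.62 to 0.971 CPM in WT_IC. It was called higher (3.91 ± 0.29, SE), opposite to the interferon-responsive list. Wdfy1 divided the WT_cr pups, with 105 and 111 CPM in pups 1 and 3, and 78.2, 74.9 and 78.4 CPM in pups 4, 5 and 6, while all WT_IC pups held 113 to 122 CPM.

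Most adult globin genes were higher in WT_IC. Hba-a1, an alpha globin gene, held 17.7 to 18.6 CPM in WT_cr and 32, 81.8, 52.9 and 47.3 CPM in WT_IC (1.49 ± 0.18, SE). The beta globin genes Hbb-bs and Hbb-bt changed by 1.22 and 0.98, and Alas2, the red-cell enzyme that starts haem synthesis, by 0.94. The other red-cell genes did not follow: Slc4a1, Klf1 and Bpgm were not called, Fech changed by -0.14 and was called lower, and the second alpha globin gene Hba-a2 held 3.32 to 4.72 CPM in WT_cr and 0.0348, 0.094, 4.86 and 4.48 CPM in WT_IC. Hba-a1 and Hba-a2 share 72% and 89% of their 50-base words with other genes, so their counts are uncertain.

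Microglia, the resident immune cells of the brain, gave mixed calls, with 3 of 16 markers higher and 2 lower. The shares over all genes tested were 9.84% higher and 10.5% lower. Aif1, a calcium-binding protein gene of macrophages, held 1.39 to 2.29 CPM in WT_cr and 3.31 to 5.15 CPM in WT_IC (1.33 ± 0.18, SE). P2ry12, the receptor that senses purines, rose by 0.95 and the fractalkine receptor gene Cx3cr1 by 0.40. The complement genes C1qb and C1qc changed by -0.43 and -0.28. Csf1r, Tyrobp and Ptprc, with -0.03, 0.05 and 0.03, were not called, nor was Trem2.

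Imprinted genes outside the PWS locus are made from 1 parental copy. Of 43 tested, 9 were called higher and 4 lower, with a median of 0.00, beside 9.84% and 10.5% of all genes tested. The neighbours Mest and Copg2 on chromosome 6 were both higher: Mest held 40.1 to 48.3 CPM in WT_cr and 57.8 to 80.6 CPM in WT_IC (0.77 ± 0.09, SE), and Copg2 61.6 to 75 and 92.3 to 114 CPM (0.61 ± 0.07, SE). In the cluster on chromosome 12 the maternally expressed noncoding RNAs Meg3 and Rian were lower, with -0.45 and -0.30, as was the paternally expressed Rtl1 with -0.38, and the neighbouring Dlk1, Mirg and Dio3 were not called. Kcnq1ot1, the long noncoding RNA that silences its neighbours, was higher with 0.28. Peg3, Peg10, Grb10, Igf2 and H19 were not called.

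Of 11 GABA-A receptor subunit genes 3 were called higher and none lower, and of 18 synapse genes 1 was called higher and 4 lower, beside 20.4% of all genes tested. Gabra2, an alpha subunit of the GABA-A receptor whose level is known to vary between strains, held 137, 83.1, 114, 71.8 and 63.4 CPM in WT_cr and 147, 146, 154 and 149 CPM in WT_IC (0.80 ± 0.14, SE). The WT_IC pups were almost equal, and the WT_cr pups spread over more than 2-fold below them. Gabrb1 and Gabrb2 were higher with 0.34 and 0.21, the latter not called by limma with litter as a block (adjusted p = 0.068 with an estimated correlation), and the remaining 8 of 11 subunits tested were not called. Among the synapse genes, the scaffold genes Shank1, Shank2 and Shank3 were lower with -0.40, -0.38 and -0.29, and Nlgn1 was higher with 0.22, while Dlg4, Syn1, Syp, Grin1 and Gria2 were not called.

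Several lists for the large cell classes of the brain held few calls with all 9 pups, and more without WT_cr pup 6. With all pups none of 12 glutamatergic, 14 monoaminergic or cholinergic, 13 cerebellar, 16 hypothalamic neuropeptide or 20 cholesterol synthesis genes was called in edgeR, DESeq2 or limma. At an unadjusted p under 0.05 in edgeR, 1 glutamatergic, 1 cerebellar, 4 hypothalamic and none of the other genes passed. Of the 9 pups, WT_cr pup 6 was lowest in 9 of the 12 glutamatergic genes and highest in 12 of the 14 monoaminergic or cholinergic and 12 of the 16 muscle, cartilage and bone genes. Without it 5 glutamatergic genes were lower (median -0.13), and 5 monoaminergic or cholinergic genes were higher and 1 lower (median 0.44). In addition 4 hypothalamic and 1 cerebellar gene were higher, and the cholesterol list still held no call. Over all genes tested without that pup, 2417 of 21988 were higher and 2713 lower, 23.3% in all. With all pups 20.4% of the genes tested were called. Among 14 pan-neuronal genes Snap25, of synaptic vesicle fusion, was called with -0.24, and among 12 GABAergic genes Gad2 with -0.22. Of 18 radial glia and astrocyte genes the intermediate filament gene Nes was called (-0.34 ± 0.07, SE), and without WT_cr pup 6 there were 6 higher and 1 lower. Of 16 genes of dividing cells Pcna was called (-0.32). Isl1 of the striatum list changed by -0.49 and Rora of the thalamus list by 0.40. In the oligodendrocyte lineage Cldn11 was higher with 0.61, and Cspg4 and Olig2 were lower. Without WT_cr pup 6 that list held 5 higher and 1 lower, and by limma with litter as a block Olig2 was not called (adjusted p = 0.067 with an estimated correlation).

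Genes of the tissue at the border of the brain gave a few calls. In the meningeal and fibroblast list Aldh1a2, Dcn and Lum were higher, with 0.50, 0.41 and 0.52, and Fn1 was lower with -0.43. Of 16 choroid plexus genes Tmem72 was called, and without WT_cr pup 6, the highest pup in 7 of them, 6 were higher. Over all genes tested without that pup, 2417 of 21988 were higher. Tmem72 held 3.96 to 7.55 CPM in WT_cr and 8.42 to 19.3 CPM in WT_IC (1.51 ± 0.24, SE). Npas4, an immediate early gene of active neurons, held 10.2 to 15.4 CPM in WT_cr and 6.44 to 9.51 CPM in WT_IC (-0.93 ± 0.14, SE), and Hspa1b, an inducible heat shock gene, held 1.72 to 2.39 and 3.90 to 6.90 CPM (1.42 ± 0.17, SE). With all pups the remaining lists held 3 calls or fewer in each direction.

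In a short list of noncoding and structural RNAs most tested members were higher in WT_IC. Of 6 tested, 4 were called higher and 1 lower, beside 9.84% and 10.5% of all genes tested. Noncoding RNAs as annotated classes did not share that lean. Long intergenic noncoding RNAs were called higher in 8.74% and lower in 13.4%, and snoRNAs in 4.40% and 3.30%. Malat1, a long noncoding RNA held in nuclear speckles, was at 478, 760, 750, 751 and 694 CPM in WT_cr and at 1433, 1928, 2149 and 2192 CPM in WT_IC (1.42 ± 0.11, SE). Rn7sk, the small nuclear RNA that restrains transcription elongation, held 2.15 to 5.13 CPM in WT_cr and 19.1 to 22.5 CPM in WT_IC (2.46 ± 0.16, SE). The colonies did not overlap in either gene. Scarna2 changed by 2.15 and Snhg11, a neuronal noncoding RNA, by -0.66.

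By annotated class, 454 of 1551 TEC features were called higher and 145 lower, a share of 38.6% called. TEC features are transcripts to be experimentally tested. Sense intronic RNAs were called in 32.5% and processed pseudogenes in 26.9%, with 211 of 964 pseudogenes higher and 48 lower. Protein-coding genes were called in 17.7%, with 1146 of 16066 higher and 1695 lower. Among coding genes the direction moved with base composition: in the quintile of lowest GC content 12.8% were higher and 6.29% lower, and in the quintile of highest GC content 4.33% were higher and 15.7% lower. With an offset for GC content in 20 bins, 2160 genes were higher and 2286 lower. The ribosomal feature CT010467.1 moved with the colonies as well, and its part in these results was not tested.

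Many of the largest increases were in genes that share sequence with another gene. Of 370 genes called at least 4-fold higher in WT_IC, 119 shared at least 25% of their 50-base words with a tested gene. That gene, called the partner, was the more abundant of the pair in WT_cr. These 119 genes had 106 partners, of which 51 were called lower and 8 higher. Over all genes tested, 10.5% were called lower and 9.84% higher, and the share that has such a partner is not given here. Of 193 genes called at least 4-fold lower, 15 had a partner more abundant in WT_IC. Of those 14 partners, 4 were called lower and 5 higher. Reads that match a gene and its copy equally well cannot be assigned to either with certainty, so values for single members of these pairs are uncertain. The study states a random order for multimapping alignments, and how such reads were divided between genes was not tested.

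Ribosomal protein and housekeeping genes gave clear examples. Rps2-ps13, a processed pseudogene on the X chromosome, held 0.075, 0.0186, 0.108, 0.112 and 0.125 CPM in WT_cr and 69.7, 137, 65.5 and 129 CPM in WT_IC, while its parent Rps2, of the small ribosomal subunit, held 383, 369, 381, 371 and 346 CPM and 162, 144, 155 and 123 CPM. The colonies did not overlap in either gene, and they stood in opposite order. For Rpl26 the parent held 122 to 142 CPM in WT_cr and 27 to 29.6 CPM in WT_IC, and the copy Gm15772 0.624 to 1.02 and 102 to 118 CPM. For the glycolytic enzyme gene Gapdh the parent held 465 to 539 and 348 to 409 CPM, and the copy Gm13394 0.168 to 0.242 and 83.4 to 96.6 CPM.

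The following 60-base stretches of the annotated transcripts (GRCm38, GENCODE M21) show how little separates the pairs, with the differing bases in capitals. Over their whole ungapped overlap Rps2-ps13 and Rps2 were identical at 875 of 882 bases, Gm15772 and Rpl26 at 436 of 438, and Gm13394 and Gapdh at 999 of 1000.
Rps2-ps13, chrX:52898588-52899469, plus strand: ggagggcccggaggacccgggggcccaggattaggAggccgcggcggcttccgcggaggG
Rps2, chr17:24718116-24721929, plus strand: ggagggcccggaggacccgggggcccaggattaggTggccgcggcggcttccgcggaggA
Gm15772, chr5:3236431-3236868, plus strand: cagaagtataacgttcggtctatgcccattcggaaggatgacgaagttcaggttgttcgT
Rpl26, chr11:68901583-68906989, plus strand: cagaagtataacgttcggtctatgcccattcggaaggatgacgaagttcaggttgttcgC
Gm13394, chr2:28933610-28934609, minus strand: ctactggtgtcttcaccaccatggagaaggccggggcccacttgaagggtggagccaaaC
Gapdh, chr6:125161715-125166467, minus strand: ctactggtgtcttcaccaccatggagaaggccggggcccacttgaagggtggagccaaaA

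The coordinates are those of the whole genes, and the stretches begin at base 25 of the Rps2-ps13 transcript, 118 of Gm15772 and 287 of Gm13394. In 43 pairs whose copy reached 5 CPM in WT_IC, 26 of the 40 partners were called lower and 1 higher, with a median of -0.34. The shares over all genes tested were 10.5% lower and 9.84% higher. The copies had been picked for being high in WT_IC, so their own median of 5.27 only describes that choice. The log2 ratio of the summed mean CPM of copy and parent, which an abundant parent draws towards its own ratio, was 0.02 for Gm15772 with Rpl26, -0.06 for Gm13394 with Gapdh, -0.03 for Vcp-rs with the segregase gene Vcp, -0.15 for Gm15459 with the chaperone gene Hspa8, and -0.59 for Rps2-ps13 with Rps2.

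Some of the genes with a partner were annotated as protein coding. Tuba1c rose from a mean of 4.85 to 194 CPM while Tuba1a, the highest nuclear coding gene, had 3325 and 2900 CPM and was not called. Eno1b, a retroposed enolase gene, rose from 0.271 to 23.1 CPM and its parent Eno1 fell from 194 to 150.1 CPM. The mitochondrial gene mt-Nd3 had 177 to 270 counts in each WT_cr library and 4 to 6 in each WT_IC library, while Gm28438, a pseudogene on chromosome 1 that shares 99% of its words with other genes, had 3 to 8 and 398 to 575 counts. Their summed mean CPM was 4.36 in WT_cr and 8.60 in WT_IC, a log2 ratio of 0.98. Of 8 mitochondrially encoded genes tested as a list, 2 were called lower and none higher, beside 10.5% and 9.84% of all genes tested. The mitochondrial gene mt-Cytb was called lower (-0.29 ± 0.05, SE), and mt-Co1, mt-Nd1 and mt-Nd5 were not called. The mitochondrial ribosomal RNA gene mt-Rnr1 and tRNA gene mt-Tp were called higher, with 0.40 and 0.36.

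**Figure D4:**
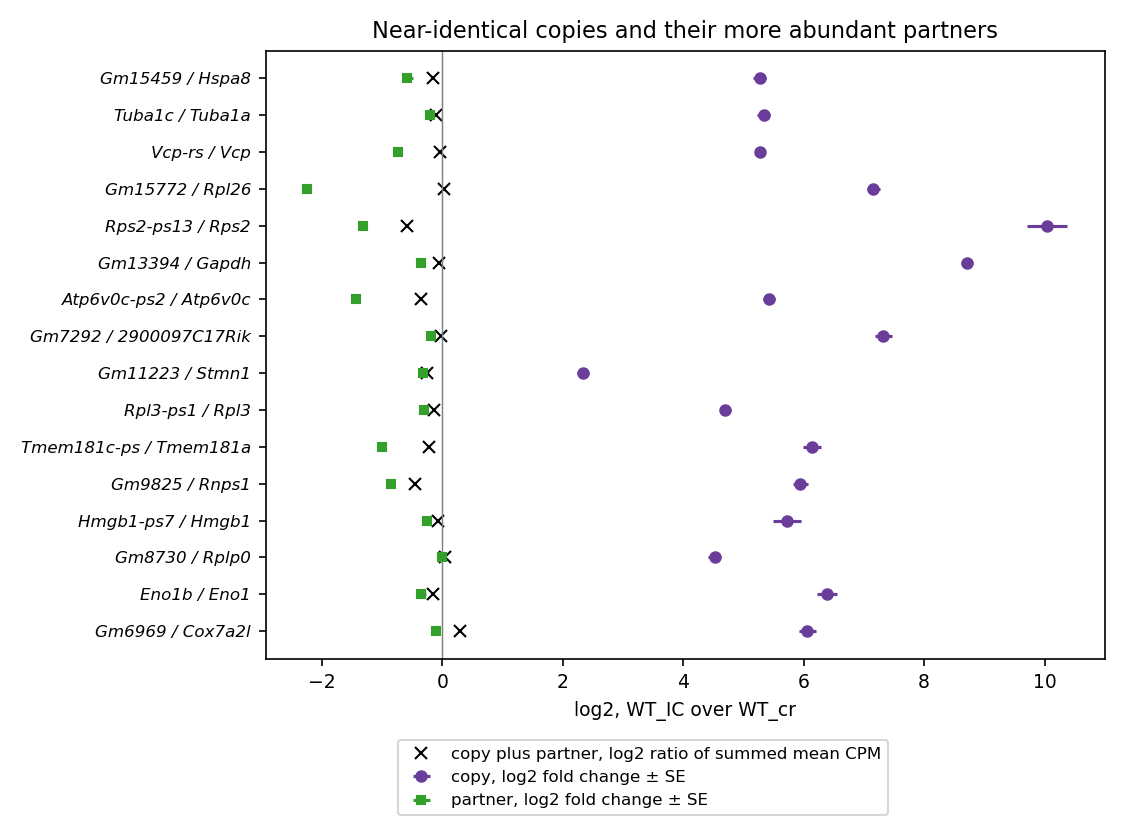
Log2 fold change with SE of 16 near-identical copies and of their more abundant partners, and the log2 ratio of the summed mean CPM of both, WT_IC over WT_cr. The copies lie at 2.33 to 10.03, the partners at -2.24 to -0.02 and the sums at -0.59 to 0.30.

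By sequence shared, of 12809 genes that share no 50-base word with another, 18.5% were called, of 629 genes that share over 50% to 90% of their words 32.1% were, and of 175 that share over 90% 27.4% were. With the genes that share no word tested alone, 1061 were higher and 1205 lower. With the counts of genes that share at least 25% of the smaller gene's words summed into families, 1902 of 21117 units were higher and 2224 lower.

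Other named genes differed by large factors as well. Cwc22, of the spliceosome, held 28.7 to 32.6 CPM in WT_cr and 515, 611, 673 and 356 CPM in WT_IC (4.16 ± 0.16, SE). Myo7a, a motor protein gene of hair cells and photoreceptors, held 54.1 to 63 CPM in WT_cr and 4.15 to 5.66 CPM in WT_IC (-3.65 ± 0.09, SE). Slc7a11, the cystine transporter gene, held 25.4 to 41.2 CPM in WT_cr and 143 to 175 CPM in WT_IC (2.35 ± 0.12, SE). The colonies did not overlap in any of these genes.

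Several genes with large differences had low levels. Sycp1, of the meiotic synaptonemal complex, had 3 to 9 counts in each WT_cr library and 195 to 262 in each WT_IC library. In the opposite direction Rec8, a meiotic cohesin gene, held 9.75 to 12.9 CPM in WT_cr and 0.317 to 0.848 CPM in WT_IC (-4.25 ± 0.20, SE). Dppa5a and Ooep, neighbours on chromosome 9 expressed in embryonic stem cells and oocytes, were lower with -4.16 and -3.59, and the oocyte growth factor gene Gdf9 with -3.78. Duxbl1, a double homeobox gene, had 42 to 61 counts in each WT_cr library and 0 in each WT_IC library, where a count of 0 allows up to 3.

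In all, 10 genes had at most 3 counts in every WT_cr library and at least 50 in every WT_IC library, and 4 showed the reverse. Gm24598, annotated as a snoRNA on the X chromosome, had 0 or 1 count in WT_cr and 247 to 300 in WT_IC. Gm46313 had 0 counts in each WT_cr library and 67 to 155 in WT_IC. Among the 4 of the reverse kind, Zfp979 had 143 to 213 counts in WT_cr and 0 to 2 in WT_IC, Fam205c 85 to 153 and 1 to 3, and AA388235 188 to 305 and 0 to 3. Gm49769 had 64 to 111 counts in WT_cr and 0 in each WT_IC library. The other eight that were high in WT_IC only were predicted genes or pseudogenes, with 79 to 242 counts there.

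By chromosome the share called ran from 15.5% on X to 24.6% on 17, which carries the MHC. In windows of 20 neighbouring tested genes, the densest was chr4:144972622-147333734, a cluster of KRAB zinc finger genes, with 17 called, 8 higher and 9 lower. There Zfp990 held 0.112 to 0.197 CPM in WT_cr and 7.63 to 8.12 CPM in WT_IC. In chr7:102476579-104950289, which holds the beta globin genes, Trim genes and olfactory receptor genes, 14 of 20 were called: Trim12a, Trim34a and Olfr543 were lower with -5.71, -1.68 and -2.94, and Trim34b, Hbb-bs and Hbb-bt were higher with 2.91, 1.22 and 0.98. In chr1:25067476-25829707, beside the adhesion receptor gene Adgrb3, 14 of 20 were called higher, nearly all of them predicted transcripts.

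The protocadherin beta genes, which encode adhesion proteins that give neurons individual surface identities, were higher as a family. They were described after their values were seen. Of 22 tested on chromosome 18, 13 were called higher and none lower, with a median of 0.41, beside 9.84% higher over all genes. Pcdhb16 had mean levels of 9.07 CPM in WT_cr and 18.8 CPM in WT_IC (1.06 ± 0.08, SE), and Pcdhb3, Pcdhb15 and Pcdhb19 changed by 0.74, 0.73 and 0.63. Pcdhb5 and Pcdhb6, with 0.06 and 0.11, were not called.

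Within a colony most genes were close to equal. Over 12261 genes in WT_cr and 12289 in WT_IC with a mean of at least 5 CPM, the median SD of log2 CPM between pups was 0.092 in WT_cr and 0.090 in WT_IC, and an SD of 1 or more was reached by 7 genes in WT_cr and 11 in WT_IC. Between pairs of pups the median absolute log2 difference was 0.067 to 0.112 for 4 pairs of litter mates, 0.064 to 0.141 for 12 pairs of the same colony and other litters, and 0.109 to 0.168 for 20 pairs across colonies. By this measure litter mates and other pups of a colony covered like ranges, and the lowest pairs across colonies overlapped the highest within them.

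Among the genes of largest spread were Hox genes, which mark the hindbrain and spinal cord. Hoxb5 held 0.169, 0.223, 9.65, 9.65 and 6.90 CPM in WT_cr and 15.8, 0.338, 15.6 and 10.8 CPM in WT_IC. WT_cr pups 1 and 3 and WT_IC pup 2 were near 0, and the other 6 pups were high. Hoxa5 divided the pups in the same way, and Hoxb8 held 13, 0.0188, 8.73 and 1.98 CPM in WT_IC and 0.0186 to 1.66 CPM in WT_cr. Slc6a5, the glycine transporter gene of inhibitory hindbrain neurons, held 6.39 and 3.89 CPM in WT_cr pups 1 and 3 and 26.2 to 47.2 CPM in the other WT_cr pups, and Prph, of neurons with peripheral axons, 1.65 and 2.89 against 7.17 to 10.7 CPM. Of 18 Hox genes tested between colonies, Hoxb7 was called (3.42 ± 0.86, SE), with overlapping ranges of 0 to 0.279 CPM and 0.0188 to 2.13 CPM. That call was lost by limma with litter as a block (adjusted p = 0.099 with an estimated correlation). It was also lost by DESeq2 (adjusted p = 0.062) and with robust dispersion in edgeR (adjusted p = 0.070). Without WT_cr pup 6 there were 3 Hox calls, all higher, beside 2417 of 21988 genes tested that were higher.

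Several other genes took separate levels within WT_IC while the WT_cr pups were nearly equal. Zfp961, a zinc finger gene, held 9.67, 0.376, 9.73 and 18.5 CPM in WT_IC and 13.8 to 18.2 CPM in WT_cr. E130008D07Rik, a noncoding RNA on chromosome 17, held 0.871, 20.8, 11.1 and 20.8 CPM in WT_IC and 25.4 to 32 CPM in WT_cr. In both genes a low, a middle and a high level were seen within 4 pups.

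The X-linked pseudogene Gm8822 held 0.662 CPM in WT_IC pup 1 and 12.2 to 12.8 CPM in the other three, against 0.613 to 0.806 CPM in WT_cr. Gm5514 held 11.2, 0.244, 4.92 and 4.58 CPM in WT_IC and at most 0.395 CPM in WT_cr. Zfp125 divided WT_IC by litter, with 12.5 and 14.0 CPM in pups 1 and 2 and 2.10 and 2.34 CPM in pups 5 and 6, below 20.4 to 24.1 CPM in WT_cr. Hba-a2 divided the same litters. Within WT_cr, Gm10800, a predicted gene, held 49.9, 2.4, 6.1, 7.81 and 50.1 CPM, and Gm20075 held 0.577 CPM in pup 3 and 6.13 to 7.10 CPM in the others.

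**Figure D5:**
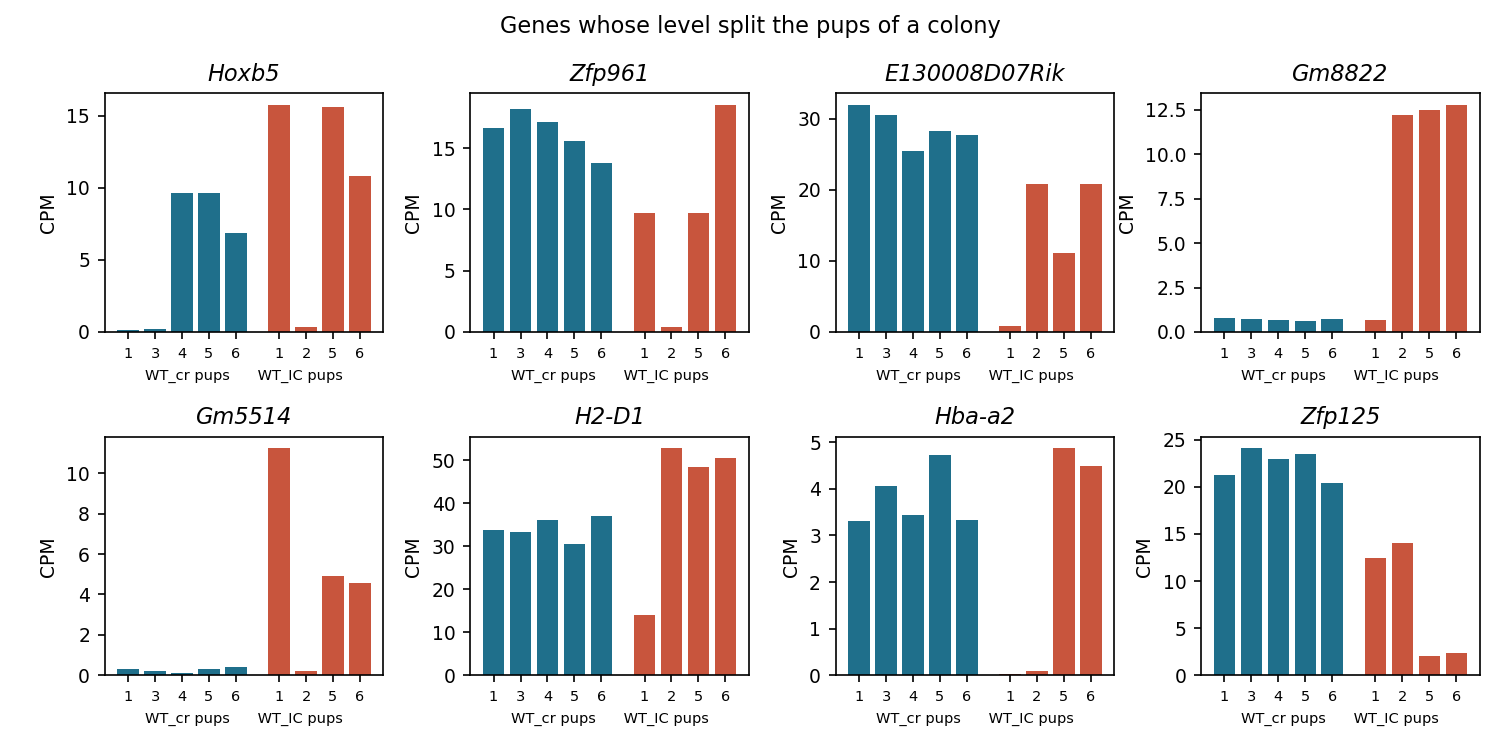
CPM in each of 5 WT_cr (blue) and 4 WT_IC (red) pups for 8 genes whose level split the pups of a colony, with the pup number under each bar. Hoxb5 is near 0 in WT_cr pups 1 and 3 and WT_IC pup 2, and Zfp961, E130008D07Rik, Gm8822, Gm5514, H2-D1, Hba-a2 and Zfp125 divide the WT_IC pups.

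The mutant littermates gave a second set of animals of the same colonies, 6 PWS-cr and 3 PWS-IC libraries that the wild-type comparison did not use. In them colony and PWS genotype cannot be told apart, and PWS genes were left out. A further PWS-IC library whose Snrpn went against its label was left out, and the 3 PWS-IC pups were all female, so the sex term was estimated from PWS-cr. With that library kept, 1508 genes were called. Of 22827 genes tested, 2058 (9.02%) were higher and 1871 (8.2%) lower in PWS-IC. Of the 2139 genes called higher between wild types and tested here, 1233 (57.6%) were also called higher and 3 lower, and of 2312 called lower, 1140 (49.3%) were called lower and 2 higher. The fold change had the same sign in 4353 of 4451 genes, and that share over all genes tested is not given here. Both comparisons rest on the same separate counting of each colony.

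The genes of large difference between wild types differed in the same direction between mutants. Rps2-ps13 changed by 9.20, Eno1b by 6.40, Cwc22 by 4.25, Myo7a by -4.24 and Malat1 by 1.89. In the interferon-responsive list 6 of 20 were called lower and none higher, with a median of -0.79, and the vessel list had 2 lower and 1 higher. Isl1, at -0.49 between wild types, was at 0.39 and not called in the mutants, and Per1, at -0.24 between wild types, was called higher there with 0.38. The mutant libraries are litter mates of the wild types, so they are not independent of litter.

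At the PWS locus itself levels are given without a test, since Snrpn was used to choose the libraries. Ndn, which encodes the growth suppressor necdin, held 211, 258, 260, 313 and 358 CPM in WT_cr and 512, 550, 505 and 473 CPM in WT_IC. Magel2, a MAGE family gene of the hypothalamus, held 43.5 to 67 CPM in WT_cr and 27.6 to 42.9 CPM in WT_IC. The 2 neighbouring paternally expressed genes thus stood in opposite order, without overlap between the colonies in either. Ranges did not overlap in 3 of 12 paternally expressed and 2 of 11 maternally expressed or flanking PWS genes. Over all genes tested that share was 20.3%. Mkrn3 held 16.5 to 20.6 and 19.4 to 23.2 CPM, and Peg12 3.35 to 3.66 and 3.07 to 3.66 CPM.

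Snhg14, the long host transcript of the snoRNA clusters, held 131 to 158 CPM in WT_cr and 157, 171, 214 and 211 CPM in WT_IC. The maternally expressed ubiquitin ligase gene Ube3a held 144 to 166 CPM in WT_cr and 190 to 207 CPM in WT_IC, with no overlap. Outside the imprinted genes, Herc2 and Cyfip1 overlapped between the colonies, with 250 to 372 and 288 to 345 CPM for Herc2 and 78.2 to 85.1 and 76.6 to 82.8 CPM for Cyfip1. A230103L15Rik held 50.7 to 61.1 CPM in WT_cr and 31.5 to 46.7 CPM in WT_IC. Snurf had 0 counts in every library, where a count of 0 allows up to 3.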

How the data were processed

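RNA from whole newborn brains was selected for poly(A), sequenced as unstranded paired reads and counted per gene by the authors. The submitters' processing notes name STAR, featureCounts, DESeq2, kallisto and the build mm10, and the study states a random order for multimapping alignments. The deposited tables, 1 for each colony, hold raw counts and TPM per library. The authors' comparison columns (DESeq2 means, fold changes, errors and p-values of wild type over mutant) were not used, and 40 columns of scaled counts and FPKM were left aside.

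The tables were joined on gene identifiers (55406 genes). Counts of 9 wild-type libraries were tested with edgeR 4.0.16 (quasi-likelihood, TMM scaling, sex and colony as terms, at least 10 counts in at least 4 libraries, Benjamini-Hochberg adjusted p under 0.05, two-sided) in R 4.3.3. Levels are the deposited TPM, or CPM computed from the counts. Total counts were 47113084 to 58727396 per library, and intervals from counts cover counting error only. Sequence sharing is the share of a gene's 50-base words found in transcripts of another gene (GENCODE M21). The colonies were compared in 6 PWS-cr and 3 PWS-IC mutant libraries in the same way. Scripts were tested on simulated data.

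The members and the 41 gene lists were chosen with earlier results of these data known. Named genes were the 12 largest called changes in each direction, 3 predicted genes in each, 4 per list, 8 per colony by spread and 10 at most with counts in a single colony. A further 36 genes were chosen after their values were seen. Alternatives were DESeq2 1.42.0, limma 3.58.1 with litter as a block, counts summed per litter, other scalings and filters, males alone and each library left out. Those for shared words, families of copies and GC content were chosen after seeing the data. A few genes that enter the counts of lists are not reported here by name.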

Additional observations from a re-analysis of the deposited data

Results flagged for a closer look

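In 216 groups of 4 or 5 pups (108 named genes, each in both colonies), 18 had a pup whose CPM stood apart from its group by Dixon's test, and chance alone flags about 1 in 20 groups. That rate does not apply to the whole set, since some of these genes were chosen for their spread between pups or after their values were seen, Gm8822, Gm4366 and H2-D1 among them. Groups of other genes were not examined.

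In WT_IC, Gm8822 was at 0.662 CPM in pup 1 and at 12.2 to 12.8 in the other pups, and H2-D1 was at 14.0 CPM in pup 1 and at 48.4 to 52.8 in the others. Pup 1 also stood above the others in Gabra5, a subunit gene of the GABA-A receptor, with 96.35 CPM against 78.4 to 80.0, and in Vcp-rs with 119.6 against 107 to 109 CPM. In pup 6 the predicted gene Gm4366 held 15.8 CPM against 1.52 to 1.88, and mt-Nd3 0.119 against 0.0678 to 0.0752. In pup 2 the ubiquitin ligase gene Ube3a held 190.1 CPM against 204 to 207, and Zfp984 0.282 against 0.192 to 0.203.

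In WT_cr, pup 4 was below the other pups in the chaperone gene Hspa8, with 856 against 997 to 1054 CPM, in Myo7a with 54.1 against 62.1 to 63, and in A230057D06Rik with 42.6 against 49.5 to 51.2. It was above them in the mitochondrial tRNA gene mt-Tl2 with 0.520 against 0.149 to 0.249 CPM, and in Gm24598, where its 0.0179 CPM is a single count against 0 in the others. Pup 3 was low in Gm20075, with 0.577 against 6.13 to 7.10 CPM, and in the phospholipid transporter gene Atp10a, with 7.21 against 8.15 to 8.40. Malat1 was at 478 CPM in pup 1 and 694 to 760 in the others. In pup 6 AA388235 was at 3.91 CPM against 5.22 to 5.68, and Vcp-rs at 3.10 against 2.77 to 2.84.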

How the results depend on the processing

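The wild-type comparison gave 4536 calls. It gave 3007 with males only, 1374 without WT_IC pups 1 and 5 (the pair with most Hoxb8), 2266 when the 12809 genes that share no word were tested alone, and 2713 to 5130 with 1 pup left out, the lowest without WT_IC pup 1 and the highest without WT_cr pup 6. The other alternatives gave 3390 to 6783 calls, including 4821 by DESeq2, 3510 with counts summed per litter and 4182 by limma with litter as a block. The mutant comparison gave 3929 calls, 1508 with a further library kept as labelled, and 1841 to 4980 with 1 library left out, of which 1841 was without PWS-IC 4, 2221 without PWS-cr 3 and 2177 without PWS-cr 6. Ranking by CPM in place of TPM shared 54 of the 100 highest genes. Of 134 named called genes, 82 were called in every setting and none reversed, and 258 of 3002 values missed the threshold. The cause of these shifts was not tested. No paired analysis was possible because the wild types of the colonies come from different litters. Depth limits genes near 0 counts, where a count of 0 allows up to 3.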
